A study of Mus musculus with 16 samples.

Results

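Arginine, tryptophan and itaconate metabolism was followed through 9 genes in tumour myeloid cells, namely Arg1, Arg2, Nos2, Ass1, Odc1, Slc7a2, Ido1, Il4i1 and Acod1. They were taken as the rows of the deposited matrix whose gene identifier carries one of these symbols in the deposited comparison tables. All 9 of 9 were found, each as 1 row, among 30819 genes. Membership follows the names, although the set of names was drawn up with earlier results of these data known.

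The study asked how loss of complement component C3 changes macrophages and monocytes inside a tumour. Cells of MN/MCA1, a transplantable mouse sarcoma line, were injected under the skin (500000 cells), and tumours were taken 21 days later. Monocytes were sorted as CD45+ CD11b+ Ly6G- CD11c- F4/80- Ly6C+ cells, and macrophages as CD45+ CD11b+ Ly6G- CD11c- Ly6C- F4/80+ cells. The 4 groups were wild-type monocytes, C3-/- monocytes, wild-type macrophages and C3-/- macrophages. Each group held 4 libraries. Every mouse gave 1 library of each cell type, and the wild-type mice are numbered 1 to 4 and the C3-/- mice 6 to 9. All mice were labelled C57BL/6J. Age was not given in the sources used here, nor whether the genotypes were littermates. C3-/- is the genotype of the host mouse, and the tumour cells came from the line.

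Libraries held 18689129 to 29048763 recovered reads, and values are given as normalized reads (recovered reads scaled by each library's size factor). Differences are given on the deposited log2 scale, which draws low values together and so understates fold changes. C3 fell in C3-/- cells, from 4008 ± 858 to 1234 ± 168 normalized reads in macrophages and from 15159 ± 718 to 4925 ± 288 in monocytes (mean ± SD, n = 4 per group). Its groups did not overlap in macrophages or monocytes, as the genotype labels have it, although 30.8% and 32.5% of the wild-type mean remained. The sort labels went with their markers: Ly6c2 averaged 16217 normalized reads in wild-type monocytes and 10.3 in wild-type macrophages, and Adgre1, which encodes F4/80, averaged 5928 and 27262. The C3-/- monocyte libraries of mice 7 and 8 stood apart by neutrophil precursor genes. Ngp had 4486.9 and 3264 normalized reads there, and at most 3.71 in any other monocyte library. Camp had 634 and 1366 there and at most 2.57 elsewhere, and Ltf 1734 and 731 and at most 17.4 elsewhere. Results that use C3-/- monocytes were therefore also computed without both mice, a choice made after these values were seen. In these bulk libraries fewer cells of a type and less RNA per cell cannot be told apart. The p-values measure the spread between 4 mice per group, or between fewer where mice were left out.

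Arginine enters macrophages through cationic amino acid transporters, of which Slc7a2 encodes the one most tied to macrophage activation. Inside the cell it is shared by arginase, which makes ornithine and urea, and by the inducible nitric oxide synthase, which makes nitric oxide and citrulline. Ornithine feeds the polyamines through ornithine decarboxylase, and citrulline is returned to arginine through argininosuccinate synthase. Tryptophan is turned to kynurenine by indoleamine 2,3-dioxygenase, and itaconate is made from the citrate-cycle intermediate cis-aconitate in activated macrophages. Arginase and indoleamine 2,3-dioxygenase are known in tumours as means by which myeloid cells use up amino acids that T cells need.

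Promoter sequences are shown for the member that differed between genotypes in both cell types, Odc1, and for 2 members that were higher in monocytes, Ass1 and Acod1. Each is the 250 bases before the RefSeq start in GRCm38.p6, on the plus strand, and 4 of the 9 genes had an entry in the promoter table. Capitals mark matches, on either strand, to the letters searched: TATAAA (the TATA box), CACGTG (the E box bound by Myc), GGGCGG (the GC box), AANNGAAA (an interferon regulatory factor core), TTCNNNGAA (a STAT element), TTGCNNAA (a C/EBP element) and an NF-kB element. The Odc1 window is chr12:17544623-17544872, the Ass1 window chr2:31470020-31470269 and the Acod1 window chr14:103046762-103047011.
Odc1: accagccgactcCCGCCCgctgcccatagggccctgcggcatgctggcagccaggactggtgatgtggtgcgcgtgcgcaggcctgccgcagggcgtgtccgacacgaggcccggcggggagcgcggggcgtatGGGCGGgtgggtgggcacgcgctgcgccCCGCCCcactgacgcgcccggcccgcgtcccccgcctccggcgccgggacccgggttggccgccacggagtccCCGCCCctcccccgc
Ass1: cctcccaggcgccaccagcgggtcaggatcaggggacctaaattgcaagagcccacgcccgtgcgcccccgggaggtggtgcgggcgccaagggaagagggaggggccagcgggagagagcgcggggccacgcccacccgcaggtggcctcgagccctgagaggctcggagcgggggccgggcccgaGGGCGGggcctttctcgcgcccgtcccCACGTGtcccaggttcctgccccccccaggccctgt
Acod1: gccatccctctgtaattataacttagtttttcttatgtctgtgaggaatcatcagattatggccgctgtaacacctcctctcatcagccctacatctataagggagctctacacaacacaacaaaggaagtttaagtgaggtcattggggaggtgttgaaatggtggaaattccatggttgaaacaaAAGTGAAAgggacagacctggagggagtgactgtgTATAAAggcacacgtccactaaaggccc

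The 3 windows differed in composition. The Odc1 window was 80% G and C and held 4 matches to the GC box, the Ass1 window was 75.6% G and C, and the Acod1 window was 44.4%. The Ass1 window held 1 GC box and, at bases -36 to -31 from the start, CACGTG. The Acod1 window held TATAAA at -28 to -23 and the interferon regulatory factor core at -63 to -56. Among 32851 promoter windows of the same length, GGGCGG was found in 32.7%, CACGTG in 6.02%, TATAAA in 12.4%, AANNGAAA in 21.3%, TTCNNNGAA in 7.02%, TTGCNNAA in 9.56% and the NF-kB element in 3.44%. A match of these letters is a description of the window and no record of a bound factor.

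Arg1 was the member with the most RNA in all 4 groups. Per kilobase of exon it averaged 17494 ± 3634 normalized reads in wild-type monocytes and 13010 ± 4191 in C3-/- monocytes. In macrophages it averaged 6451 ± 1541 in wild type and 4065 ± 1584 in C3-/-. By this level it ranked 46 among 30771 genes in wild-type monocytes, 64 in C3-/- monocytes, 121 in wild-type macrophages and 215 in C3-/- macrophages. Acod1 was next in every group, and above the third member in all 4 libraries of both monocyte groups.

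The order below these members differed between the cell types. In wild-type monocytes the level per kilobase was 2477 ± 483 for Acod1, 916 ± 399 for Nos2, 479 ± 61.2 for Odc1, 472 ± 30.2 for Ass1, 384 ± 93.3 for Arg2, 47.5 ± 10.2 for Slc7a2 and 4.73 ± 2.32 for Ido1. There Odc1 overlapped Ass1, and Ass1 overlapped Arg2, so their ranges do not settle the order of these neighbours, which was not tested. In wild-type macrophages it was 598 ± 146 for Acod1, 580.0 ± 85.8 for Odc1, 203 ± 32.1 for Ass1, 77.3 ± 24.2 for Nos2, 70.7 ± 13.97 for Slc7a2, 32.6 ± 10.6 for Arg2 and 1.55 ± 1.75 for Ido1. There Acod1 overlapped Odc1, and Nos2 overlapped Slc7a2. Il4i1 was at 0 in both wild-type groups.

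**Figure D1:**
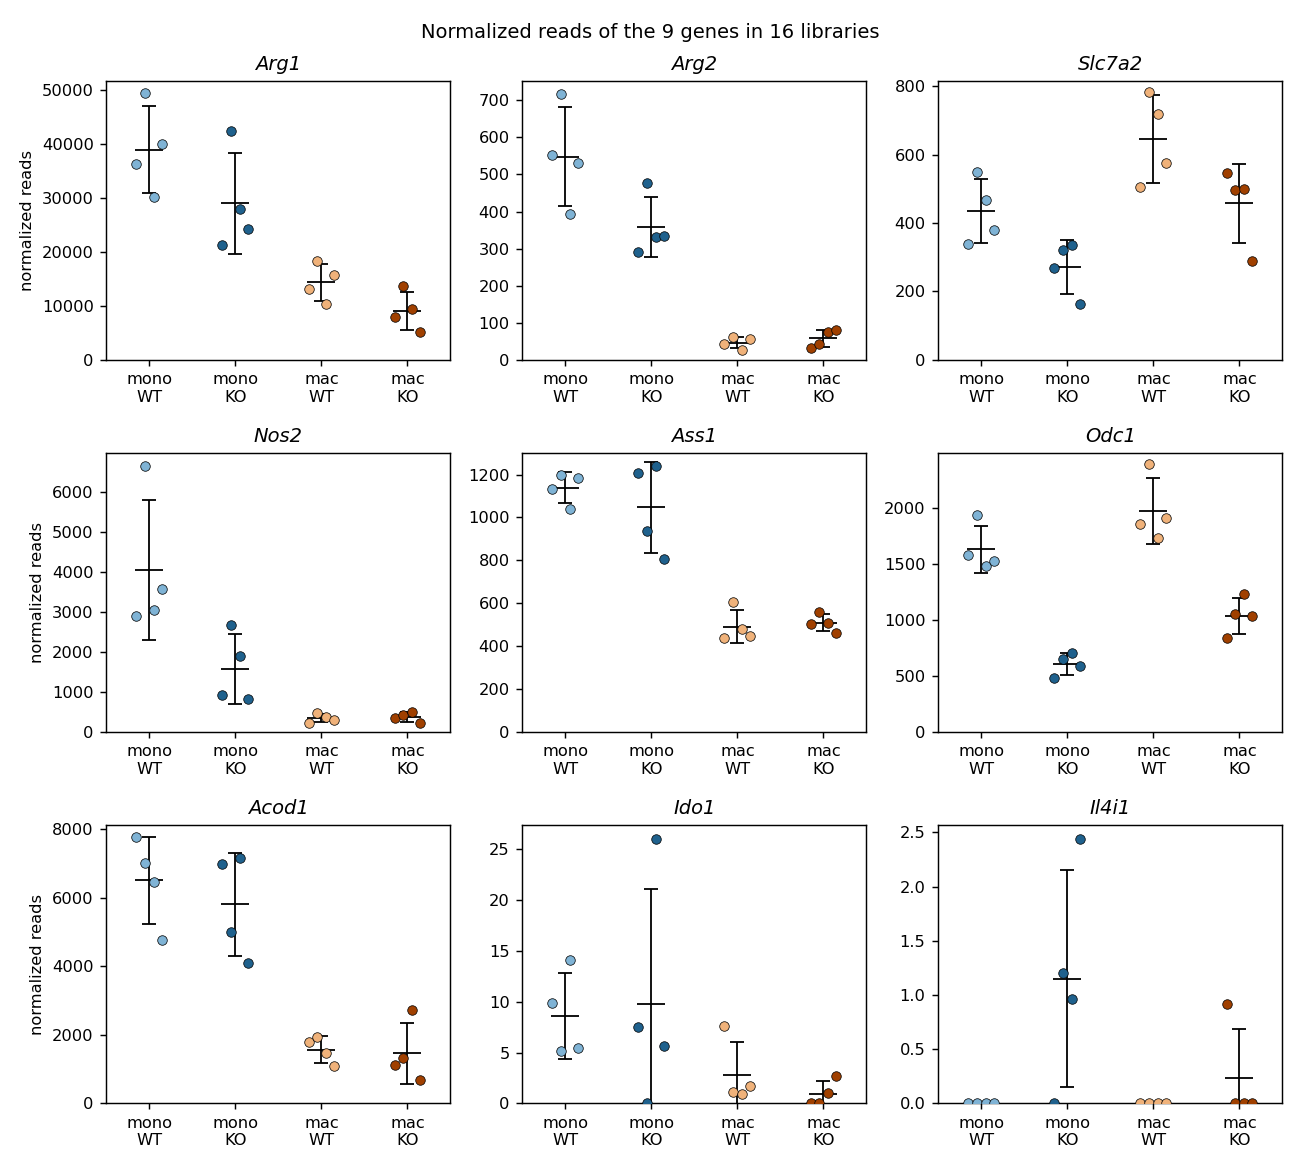
Normalized reads of the 9 genes in each of the 16 libraries (y axis, linear, starting at 0), by group (x axis: mono, monocytes; mac, macrophages; WT, wild type; KO, C3-/-). Points are libraries, and the long bar and whiskers are the mean and SD of 4 libraries (whiskers below 0 are not drawn). Odc1 is lower in both C3-/- groups without overlap, and Arg1, Arg2, Nos2, Ass1 and Acod1 are higher in monocytes.

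Of the 9 genes, 7 passed the filter on low values in every comparison, and Ido1 and Il4i1 did not. Between genotypes, 1 of these 7 passed the test in macrophages and 1 in monocytes, Odc1 in each case (limma, Benjamini-Hochberg adjusted p under 0.05). Odc1 was lower in C3-/- cells of both types. Over all genes tested the share called was 5.70% in macrophages (2.57% higher and 3.13% lower in C3-/-) and 3.32% in monocytes (1.40% higher and 1.92% lower). At an unadjusted p under 0.05 there were 2 members in macrophages and 4 in monocytes. The share of all genes at that unadjusted threshold is not given here, and the shares above do not serve as its background. The normalized reads of the genotypes did not overlap for 1 of the 7 in macrophages (Odc1) and for 3 of the 7 in monocytes (Nos2, Odc1 and Slc7a2), against 13.1% and 11.1% of all genes tested.

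**Figure D2:**
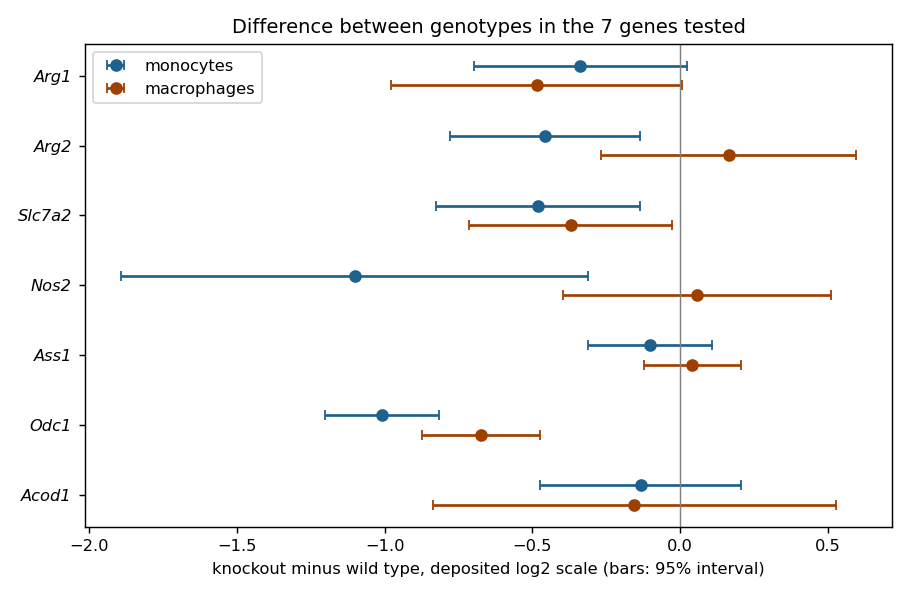
Difference between genotypes (x axis, C3-/- minus wild type on the deposited log2 scale) for the 7 genes tested, in monocytes and macrophages. Points are limma estimates from 4 against 4 libraries and bars are 95% intervals without adjustment for the number of genes. Odc1 lies at -1.01 in monocytes and -0.67 in macrophages, and the Nos2 estimates are -1.10 and 0.06.

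The arginases did not pass the test between genotypes. Arg1 (GRCm38 chromosome 10, 24915221 to 24927484, minus strand) encodes the cytosolic arginase known from alternatively activated macrophages. In wild-type monocytes it had 36332, 49465, 30109 and 39999.5 normalized reads in mice 1 to 4, and in C3-/- monocytes 21266, 42366, 28020.1 and 24292 in mice 6 to 9. C3-/- mouse 7 lay within the wild-type range and the other 3 lay below it. The difference was -0.34 ± 0.16 (SE), with an adjusted p of 0.320 by limma and a 95% interval of -0.70 to 0.02. In macrophages Arg1 had 13159, 18337, 10312 and 15682 normalized reads in wild type and 7876, 13657, 9459 and 5231 in C3-/-. Again mouse 7 was the highest C3-/- library and the groups overlapped. The difference was -0.49 ± 0.21 (SE; limma, adjusted p = 0.255; 95% interval -0.98 to 0.01).

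Arg2 (chromosome 12, 79130777 to 79156301, plus strand) encodes the mitochondrial arginase. It had 552, 718, 393 and 531 normalized reads in wild-type monocytes and 291, 477, 331 and 334 in C3-/- monocytes. Mouse 7 alone of the C3-/- mice reached the wild-type range. The difference was -0.46 ± 0.15 (SE; limma, adjusted p = 0.123; 95% interval -0.78 to -0.14). In macrophages Arg2 was low, at 42.8, 60.6, 26.8 and 55.8 normalized reads in wild type and 32.2, 43.4, 75.2 and 80.7 in C3-/-, and the groups overlapped (0.16 ± 0.20 SE; limma, adjusted p = 0.711). The kit does not mark strand and 28.1% of the exon bases of Arg2 are shared with Vti1b and Gm48780 on the other strand, so reads there cannot be assigned with certainty.

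Slc7a2 (chromosome 8, 40862396 to 40922308, plus strand) encodes the cationic amino acid transporter that brings arginine into activated macrophages. In monocytes it had 339.6, 549, 468 and 380.4 normalized reads in wild type and 269.6, 321, 337 and 163 in C3-/-. All 4 C3-/- libraries lay below all wild-type libraries, by a narrow gap between 337 and 339.6. The difference was -0.48 ± 0.16 (SE) and did not pass (limma, adjusted p = 0.131; range over its alternatives 0.0418 to 0.266). In the authors' deposited table Slc7a2 in monocytes had a log2 difference of -0.68 and an adjusted p of 0.0418. In macrophages Slc7a2 had 506, 785, 718 and 576 normalized reads in wild type and 547, 497, 499.8 and 288 in C3-/-, with overlap (-0.37 ± 0.15 SE; limma, adjusted p = 0.210).

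Nos2 (chromosome 11, 78920787 to 78960254, plus strand), the inducible nitric oxide synthase, had the estimate furthest from 0 of the 7 members between genotypes on the deposited scale, in monocytes. Wild-type monocytes had 2904, 6651, 3044 and 3574 normalized reads and C3-/- monocytes 904, 2663, 1899.7 and 807. Each C3-/- library lay below each wild-type library, and the values varied within both groups, with an SD of 43.6% of the mean in wild type and 56.2% in C3-/-. The mean in C3-/- was 38.8% of wild type. The difference was -1.10 ± 0.34 (SE; 95% interval -1.89 to -0.31) and did not pass the test (limma, adjusted p = 0.143). It passed when all 16 libraries shared 1 estimate of the spread (limma, adjusted p = 0.0403). The authors' deposited table gives Nos2 there a log2 difference of -1.37 and an adjusted p of 0.0217. Those rules called 7.47% and 9.43% of all genes in monocytes (3.93% and 6.07% in macrophages). Without C3-/- mice 7 and 8 the difference was -1.62 ± 0.25 (SE; limma, adjusted p = 0.0225), where 2.00% of all genes were called. That fit kept only C3-/- mice 6 and 9. The libraries left out had the highest Nos2 of the C3-/- monocytes (2663 and 1899.7). Leaving them out therefore lowers the C3-/- mean and narrows its spread whatever sets them apart. Over all alternatives the adjusted p for Nos2 in monocytes ran from 0.0217 to 0.305.

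In macrophages Nos2 stayed low in both genotypes, at 223, 476, 365 and 301 normalized reads in wild type and 343, 420.3, 499.8 and 206 in C3-/-. The groups overlapped and the difference was 0.06 ± 0.20 (SE; limma, adjusted p = 0.920). The sign was negative without C3-/- mouse 8 (-0.05) or without wild-type mouse 1 (-0.06).

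Ass1 (chromosome 2, 31470207 to 31520672, plus strand), argininosuccinate synthase, takes the citrulline left by nitric oxide synthesis back towards arginine. It had 1135, 1199, 1038 and 1185 normalized reads in wild-type monocytes and 1209, 936, 1241 and 804 in C3-/- monocytes. In macrophages it had 435, 604, 477 and 446 in wild type and 504, 557, 509 and 462 in C3-/-. The genotypes overlapped in both cell types, with differences of -0.10 ± 0.10 and 0.04 ± 0.07 (SE; limma, adjusted p = 0.647 and 0.830). The 95% intervals were -0.31 to 0.11 in monocytes and -0.12 to 0.20 in macrophages. The processed pseudogene Gm5424 aligns to Ass1 over 1236 bp at 97.5% identity and had at most 63.9 normalized reads in a library, so a small part of the Ass1 reads may be split with it.

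The balance of Arg1 over Nos2, per kilobase, differed between genotypes in monocytes. It was 20.3 ± 4.28 in wild type, with libraries from 14.7 to 24.8, and 41.7 ± 14.2 in C3-/-, from 29.2 to 59.6. These ranges did not overlap. In macrophages the ratio was 88.1 ± 27.2 in wild type and 49.4 ± 11.3 in C3-/-, and the ranges of 56.0 to 117 and 37.5 to 64.3 overlapped. The ratio was chosen after its values were seen and was not tested.

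Odc1 (chromosome 12, 17544794 to 17551505, plus strand), ornithine decarboxylase, is the rate-limiting enzyme of polyamine synthesis, and it fell in C3-/- cells of both types. In monocytes it had 1576, 1937, 1479 and 1528 normalized reads in wild type and 476, 649.6, 700.5 and 586 in C3-/-. The highest C3-/- library was below the lowest wild-type one by a wide gap, and the C3-/- mean was 37.0% of the wild-type mean. The log2 difference was -1.01 ± 0.09 (SE; limma, adjusted p = 3.73e-05; lower in 4 of 4 libraries than any wild-type library). In macrophages Odc1 had 1854, 2398, 1734 and 1914 normalized reads in wild type and 835, 1049, 1229 and 1032 in C3-/-. The groups again did not overlap, and the C3-/- mean was 52.5% of wild type. The log2 difference was -0.67 ± 0.09 (SE; limma, adjusted p = 0.00150). In every alternative Odc1 stayed below an adjusted p of 0.05, with a range of 9.00e-09 to 0.00926 in macrophages and 8.07e-21 to 0.000353 in monocytes. Without C3-/- mice 7 and 8 the monocyte difference was -1.13 (adjusted p = 0.000353). Processed pseudogenes of Odc1 with at least 80% identity held few reads, the most being 20.1 normalized reads in a library for Gm7993 (83.8% identity).

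Genes near Odc1 on chromosome 12 also differed between genotypes. Within 2 Mb on either side, 4 of 13 neighbours tested passed in macrophages, all lower in C3-/-, and 5 of 14 passed in monocytes, 4 lower and 1 higher. These are 30.8% and 35.7%, beside 5.70% and 3.32% of all genes. Around the other 8 members the shares ran from 0 to 15.4%. The neighbours were looked at after values were seen, and no test was made of these shares. Gm22748 and Gm49760 are among those called in both cell types. Their C3-/- means were 3.14 and 0 normalized reads in macrophages and 6.50 and 0 in monocytes. Such genes can pass the filter on low values through wild-type libraries alone, and could then hardly be called higher. Gm22748 also lies within Odc1 and is no separate neighbour. The shares are therefore description only.

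Lpin1, a phosphatidate phosphatase gene that starts 0.934 Mb before Odc1, fell from 427 ± 36.8 to 42.9 ± 18.7 normalized reads in macrophages (-2.23; limma, adjusted p = 3.62e-06) and from 531 ± 70.4 to 114 ± 21.0 in monocytes (-1.59; adjusted p = 5.61e-06). Pqlc3, a PQ-loop protein gene between Lpin1 and Odc1, fell from 2107 ± 60.8 to 1225 ± 37.0 in macrophages and from 2327 ± 197 to 1297 ± 69.1 in monocytes. The predicted gene Gm49760, which starts 1.10 Mb after Odc1, went from 16.7 ± 3.14 to 0 in macrophages and from 42.3 ± 11.2 to 0 in monocytes, with no read in any C3-/- library. Gm22748, a predicted gene that lies within Odc1 on the same strand and shares no exon base with it, fell from 18.6 to 3.14 in macrophages and from 27.4 to 6.50 in monocytes (limma, adjusted p = 0.00290 and 0.0303). Reads from unspliced Odc1 and from Gm22748 cannot be told apart. Nol10, a nucleolar protein gene between Pqlc3 and Odc1, rose in monocytes from 326 ± 27.4 to 460.2 ± 30.6 (0.35; limma, adjusted p = 0.0240) and had a difference of 0.12 in macrophages (adjusted p = 0.451). Genes between these, Rock2, E2f6, Pdia6 and Hpcal1 among them, did not pass in either cell type. C3 itself lies on chromosome 17. Loss of C3 and any other difference between the wild-type and C3-/- mice, on chromosome 12 or elsewhere, cannot be told apart in this design.

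**Figure D3:**
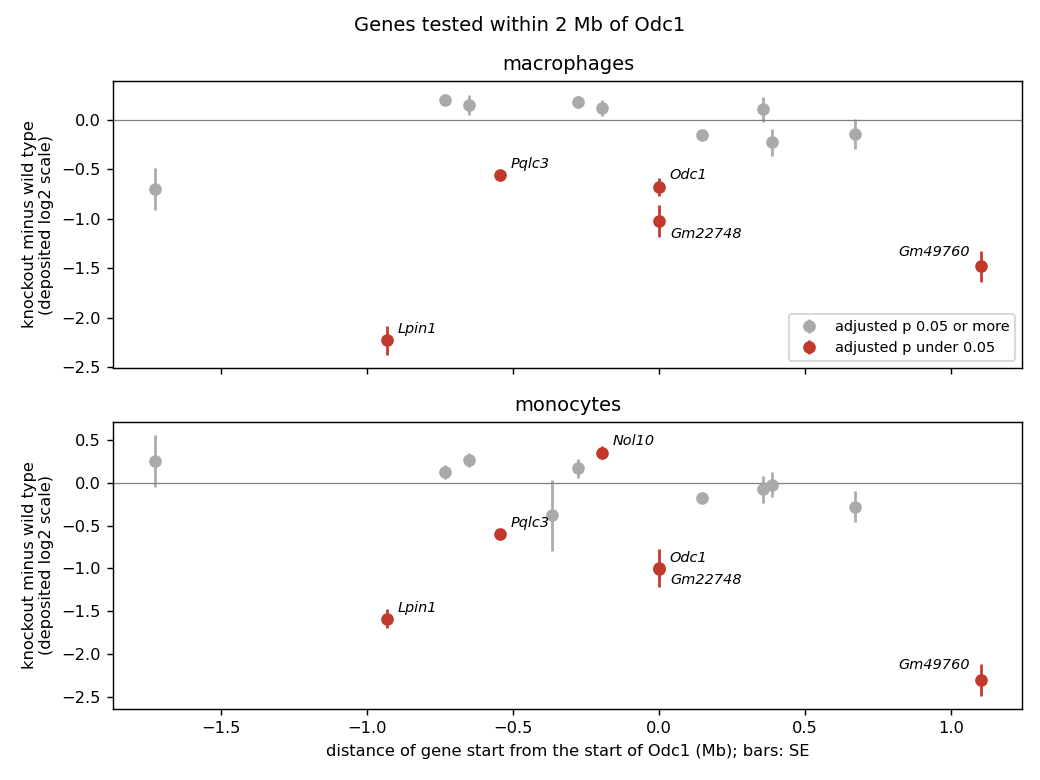
Difference between genotypes (y axis, C3-/- minus wild type on the deposited log2 scale, bars SE) of the genes tested within 2 Mb of Odc1, against the distance of their start from the start of Odc1 (x axis, Mb). Red points passed limma's test at an adjusted p under 0.05. Lpin1, Pqlc3, Odc1, Gm22748 and Gm49760 are lower in both cell types, and Nol10 is higher in monocytes.

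Marker levels that moved with genotype were read beside these results. In macrophages the summed normalized reads of 9 macrophage markers were 574934 to 700056 in C3-/- and 739120 to 870899 in wild type. Apoe carried most of that gap, with means of 305485 and 451565, while Adgre1 averaged 26350 and 27262, C1qb 121527 and 123612, and Cd68 23786 and 25518. Mertk was also lower in C3-/- without overlap, at 1199 to 2052 against 2329 to 2891. So was Mrc1, at 4085 to 4908 against 5718 to 6558. No mean of this list was higher in C3-/-. The 6 red blood cell markers summed to 322 to 625 in C3-/- and 871 to 2470.3 in wild type. The 4 mast cell or basophil markers summed to 178 to 329 and 24.7 to 48.0, of which Kit alone gave means of 222 and 31.1, while Cpa3 averaged 0.230 and 1.55, Ms4a2 1.55 and 0.475, and Mcpt4 was at 0 in the C3-/- group. The 10 dendritic cell markers summed to 4529 to 5660.1 and 5735 to 7028, mostly through Itgax (4979 and 6202 on average). Clec9a lay the other way without overlap, at 13.9 to 23.3 in C3-/- and 0.923 to 12.4 in wild type. The means of Xcr1, Flt3, Batf3 and Cd209a were also higher in C3-/-. Siglech was lower in C3-/- without overlap, at 0 to 3.55 against 5.07 to 7.60. The means of Fscn1 (28.7 and 83.0), Zbtb46 (16.8 and 19.7) and Ccr7 (15.5 and 17.2) were lower too. The 12 lymphocyte markers summed to 70.9 to 115 and 159.7 to 242. In monocytes the red blood cell markers summed to 579.9 to 2921 in C3-/- and 2936 to 7171 in wild type, and the dendritic cell markers to 3198 to 4162 and 4237 to 5616. That sum too followed Itgax (2649 and 4422 on average). Cd209a lay the other way, from 128 to 791 in C3-/- and from 2.57 to 15.03 in wild type. The means of Flt3 (206 and 85.8), Xcr1 (57.4 and 29.001), Batf3 (156 and 73.7), Clec9a (9.40 and 3.39) and Siglech (3.54 and 0.977) were also higher in C3-/-. Those of Fscn1 (150 and 225), Ccr7 (45.5 and 68.5) and Zbtb46 (40.7 and 48.6) were lower. The neutrophil sums overlapped in monocytes (7066 to 16650 in C3-/- and 8186 to 12196 in wild type), but single markers did not. Retnlg ran from 151 to 431 in C3-/- and from 6.42 to 69.8 in wild type, and S100a8 from 27.6 to 856 and from 1289 to 2560, beside Ngp, Camp and Ltf in mice 7 and 8. Ly6g, the marker used to gate neutrophils out, averaged 1.65 and 1.20. The part of these markers in the results on Odc1, Nos2 and Slc7a2 was not tested. The sums of the other marker lists overlapped between genotypes in both cell types.

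Tryptophan and aromatic amino acid enzymes among the members were at or near the limit of detection. Ido1 (chromosome 8, 24584136 to 24597009, minus strand), indoleamine 2,3-dioxygenase, had 8, 4, 15 and 5 recovered reads in wild-type monocytes and 8, 0, 27 and 7 in C3-/- monocytes. It had 8, 1, 1 and 2 reads in wild-type macrophages and 0, 0, 1 and 3 in C3-/- macrophages. The groups overlapped between genotypes, and most reads were in monocytes: the reads-per-million level (RPM) was 0.373 in wild-type and 0.422 in C3-/- monocytes against 0.130 and 0.0405 in macrophages. The exact Poisson 95% intervals, which cover counting error only, were 0.255 to 0.526, 0.304 to 0.571, 0.0670 to 0.227 and 0.0110 to 0.104 RPM. One mouse, number 8, gave 27 of the 42 reads of C3-/- monocytes.

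Il4i1 (chromosome 7, 44816387 to 44840809, plus strand) encodes a secreted amino acid oxidase that acts on phenylalanine and, as known from human tumours, on tryptophan. It had 0 reads in all 8 wild-type libraries, which allows up to 0.0349 RPM in wild-type monocytes and 0.0324 in wild-type macrophages (3 reads over the group). These limits cover only reads that were assigned to Il4i1. C3-/- monocytes had 5 reads and C3-/- macrophages 1. At this depth no level of Il4i1 was measurable. Of its exon bases 86.3% are shared with other genes, Nup62 on the same strand and Atf5 and Tbc1d17 on the other, so how reads there were assigned bears on these zeros. Nup62 averaged 1137 normalized reads in wild-type monocytes and 2145 in wild-type macrophages.

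Acod1 (chromosome 14, 103046977 to 103056573, plus strand), which encodes the enzyme that makes itaconate, was high in monocytes of both genotypes. It had 7755, 7013, 6449.6 and 4775 normalized reads in wild-type monocytes and 6977, 4993, 7143 and 4104 in C3-/- monocytes. The genotypes overlapped (-0.13 ± 0.15 SE; limma, adjusted p = 0.717; 95% interval -0.47 to 0.21). In macrophages it had 1803, 1935, 1459.9 and 1081 in wild type and 1127, 1309, 2733 and 685 in C3-/-. C3-/- macrophages held both the highest and the lowest library, with an SD of 60.5% of their mean. The difference was -0.15 ± 0.29 (SE; limma, adjusted p = 0.832), and its sign turned without C3-/- mouse 9 (0.04).

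More members passed between the cell types than between the genotypes. Odc1 was further apart between genotypes (-1.01 in monocytes, -0.67 in macrophages) than between cell types (0.20 in wild type, 0.54 in C3-/-). Between macrophages and monocytes of wild-type mice 6 of the 7 members passed, where 63.4% of all genes tested did, and in C3-/- mice 7 of 7 passed, where 60.5% did. Arg1, Arg2, Nos2, Ass1 and Acod1 were lower in macrophages in both genotypes, and the share of all genes called lower was 31.7% in wild type and 29.6% in C3-/-. Their libraries did not overlap between cell types in either genotype, beside 57.6% of all genes in wild type and 55.2% in C3-/-.

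In wild-type mice Arg2 and Nos2 stood furthest apart of the 7. Macrophages held 8.48% of the monocyte mean of Arg2 (log2 difference -2.45 ± 0.17 SE; limma, adjusted p = 3.62e-07) and 8.44% of that of Nos2 (-2.54 ± 0.23; adjusted p = 2.16e-05). Acod1 was at 24.2% (-1.48 ± 0.14; adjusted p = 1.94e-05), Arg1 at 36.9% (-1.05 ± 0.14; adjusted p = 0.000142) and Ass1 at 43.1% (-0.87 ± 0.07; adjusted p = 1.43e-06). In C3-/- mice the shares were 16.1% for Arg2, 23.4% for Nos2, 25.2% for Acod1, 31.2% for Arg1 and 48.5% for Ass1. The C3-/- log2 differences were -1.82, -1.38, -1.50, -1.20 and -0.73, with limma's adjusted p from 4.10e-06 to 0.00913.

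Slc7a2 and Odc1 ran the other way. Slc7a2 averaged 646 ± 128 normalized reads in macrophages and 434 ± 93.5 in monocytes of wild-type mice (0.41 ± 0.13 SE; limma, adjusted p = 0.0148) and 458 ± 116 and 272 ± 78.6 in C3-/- mice (0.53 ± 0.18; adjusted p = 0.0260). It was higher in macrophages in 4 of 4 mice of each genotype, though the groups overlapped. Within wild-type mice 1 to 4 the macrophage value was 1.49, 1.43, 1.54 and 1.51 times the monocyte value. Within C3-/- mice 6 to 9 it was 2.03, 1.55, 1.48 and 1.77 times. Both calls held when all mice were kept and the mouse was a block. The fits with mice left out, given next, had no block. The wild-type call was lost without mouse 3 (adjusted p = 0.0587) or mouse 4 (0.0533), and the C3-/- call without mouse 6 (0.123), 7 (0.0712) or 8 (0.0518), or mice 7 and 8 together (0.108). Odc1 averaged 1975 ± 292 in wild-type macrophages and 1630.2 ± 208 in wild-type monocytes, and did not pass (0.20 ± 0.08 SE; limma, adjusted p = 0.0517). With the mouse as a block, which uses that both libraries came from 1 animal, it passed (adjusted p = 0.00169), where 65.8% of all genes did. In C3-/- mice Odc1 was higher in macrophages without overlap (0.54 ± 0.09 SE; limma, adjusted p = 0.000367).

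Markers of other cells also differed between the sorted populations. The 10 neutrophil markers summed to 8186 to 12196 normalized reads in wild-type monocytes and 1734 to 2108 in wild-type macrophages, while Ly6g, their defining marker, averaged 1.20 and 0.518. Csf3r (4086 and 1919 on average) and Mmp8 (3416 and 28.8) carried most of the monocyte sum, followed by S100a8 (1782 and 11.4). Camp, Ngp and Ltf averaged 0.642, 0.926 and 11.8 in wild-type monocytes. The 9 macrophage markers still summed to 139914 to 212930 in wild-type monocytes, against 739120 to 870899 in macrophages. The red blood cell markers summed to 2936 to 7171 in wild-type monocytes and 871 to 2470.3 in wild-type macrophages. The fibroblast and sarcoma markers summed to 3471 to 6668 and 877 to 2272. The dendritic cell markers ran the other way, at 4237 to 5616 and 5735 to 7028. The part of these markers in the member values was not tested.

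The last comparison asked whether the difference between genotypes was itself different in macrophages and monocytes. No member passed: 0 of 7 by limma without a block, where 0.617% of all genes did. At an unadjusted p under 0.05 there were 3 of 7, with no share of all genes at that threshold given. With the mouse as a block 2 members passed, Nos2 and Odc1, where 1.91% of all genes did. For Nos2 the C3-/- effect was 1.16 higher in macrophages than in monocytes (SE 0.42, adjusted p = 0.294 without the block, and SE 0.20, adjusted p = 0.0189 with it, by limma). For Odc1 it was 0.33 higher (SE 0.13, adjusted p = 0.336 without the block, and SE 0.06, adjusted p = 0.0165 with it). Arg2 was 0.62 higher (limma, adjusted p = 0.364, and 0.153 with the block). The other 4 members had adjusted p from 0.757 to 0.994.

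The values within each mouse show the same quantities. The ratio of monocyte to macrophage normalized reads of Nos2 was 13.003, 13.98, 8.35 and 11.9 in wild-type mice 1 to 4 and 2.63, 6.34, 3.80 and 3.92 in C3-/- mice 6 to 9. All C3-/- mice lay below all wild-type mice. The ratio of Odc1 was 0.850, 0.808, 0.853 and 0.799 in wild type and 0.570, 0.619, 0.570 and 0.568 in C3-/-, also without overlap and with little spread within a genotype. The ratio of Arg2 was 12.9, 11.8, 14.7 and 9.52 in wild type and 9.05, 10.99, 4.40 and 4.14 in C3-/-, where mouse 7 reached the wild-type range. The ratio of Arg1 was 2.76, 2.698, 2.92 and 2.55 in wild type and 2.7001, 3.10, 2.96 and 4.64 in C3-/-, with overlap. The ratio of Acod1 was 3.62 to 4.42 in wild type and 2.61 to 6.19 in C3-/-. For such ratios the share of all genes without overlap between genotypes is not given here.

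**Figure D4:**
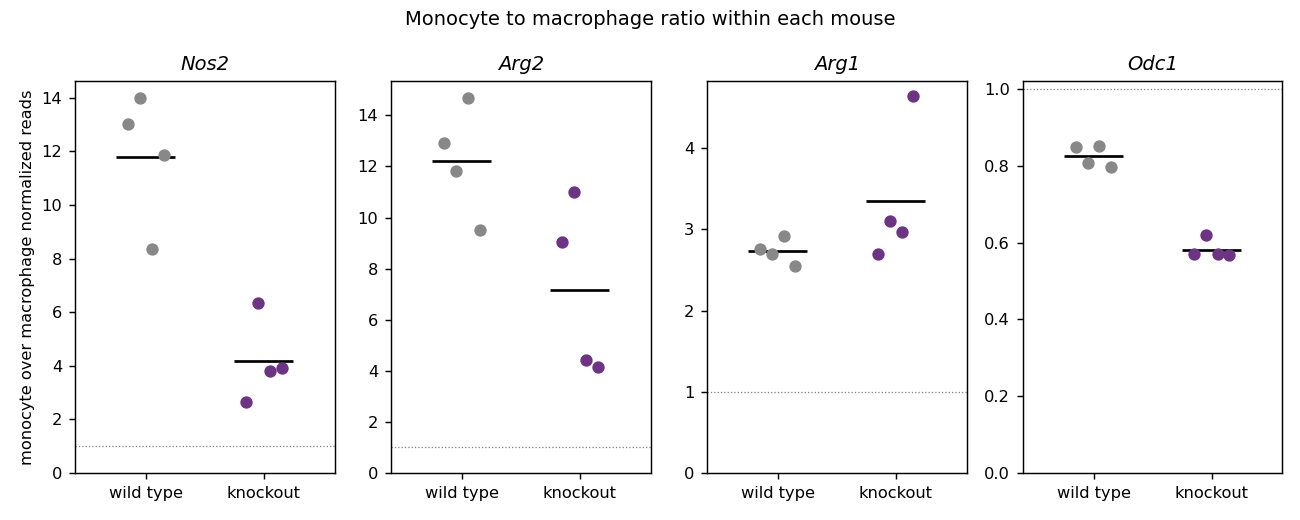
Monocyte over macrophage normalized reads within each mouse (y axis, linear, starting at 0) for Nos2, Arg2, Arg1 and Odc1, in wild-type and C3-/- mice (x axis). Points are mice, bars are means of 4 mice and the dotted line is a ratio of 1. The C3-/- ratios of Nos2 (2.63 to 6.34) and Odc1 (0.568 to 0.619) lie below all wild-type ratios. The share of all genes for which this holds is not given.

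Other genes of the same pathways were read from fixed lists. Counts of list genes at an unadjusted p under 0.05 have no share of all genes at that threshold beside them. Of 10 tested genes of arginine uptake, arginine synthesis and nitric oxide, 1 fell in C3-/- macrophages and 0 passed in monocytes (limma, with 2 at an unadjusted p under 0.05 in each, and 1 and 0 in the authors' deposited table). Over all genes tested 5.70% and 3.32% passed, and 6.07% and 9.43% of the genes in the authors' deposited table. The one that fell, Ddah2, is of the dimethylarginine dimethylaminohydrolase family and went from 118 ± 15.5 to 71.0 ± 6.71 normalized reads (-0.49; limma, adjusted p = 0.0152). That call was lost with all 16 libraries in 1 fit (0.106) and without wild-type mouse 2 (0.0517). The median difference of the list was -0.06 in macrophages and -0.03 in monocytes, beside 0.00 and -0.01 over all genes tested.

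Of 20 tested genes of ornithine, proline and polyamine metabolism, 1 rose and 1 fell in C3-/- macrophages, and 1 fell in C3-/- monocytes, where the shares over all genes were 5.70% and 3.32%. The authors' deposited table calls 1 of the list in macrophages and 4 in monocytes, beside 6.07% and 9.43% of its genes. Paox, which oxidizes acetylated polyamines, fell from 399.9 ± 31.0 to 263 ± 36.7 in macrophages (-0.44; limma, adjusted p = 0.00853). Azin1, an inhibitor of the antizymes that mark ornithine decarboxylase for degradation, rose from 2082 ± 125 to 2703 ± 391 in macrophages (0.26; limma, adjusted p = 0.0489), a call lost in 10 of 14 alternatives, among them without C3-/- mice 7, 8 or 9 and without each wild-type mouse (highest adjusted p 0.125). Atp13a2, a polyamine exporter of lysosomes, fell from 11021 ± 959 to 8275 ± 668 in monocytes (-0.29; limma, adjusted p = 0.0278), a call lost in 6 of 15 alternatives, without C3-/- mice 8 or 9, without mice 7 and 8 together (0.0691) or without wild-type mice 2, 3 or 4 (highest adjusted p 0.0850). The median difference of the list was 0.04 in macrophages and 0.06 in monocytes.

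Of 13 tested genes of tryptophan and kynurenine metabolism, 2 rose and 1 fell in C3-/- macrophages, and 1 fell in monocytes. The share of all genes called was 5.70% in macrophages and 3.32% in monocytes. The authors' deposited table calls 3 and 2 of the list, beside 6.07% and 9.43% of its genes. Ahr, the aryl hydrocarbon receptor, which binds kynurenine and related compounds, rose from 851 ± 94.6 to 1666 ± 108 normalized reads in macrophages (0.67 ± 0.06 SE; limma, adjusted p = 2.46e-05). Kmo, kynurenine monooxygenase, rose from 129.7 ± 17.5 to 247 ± 34.2 (0.63; adjusted p = 0.00225). Kynu, kynureninase, fell in macrophages from 129 ± 36.7 to 69.0 ± 2.54 (-0.57; limma, adjusted p = 0.0238) and in monocytes from 179 ± 22.9 to 98.0 ± 26.1 (-0.62; adjusted p = 0.0351). The Kynu call was lost in 6 of 14 alternatives in macrophages, among them without C3-/- mice 6, 7 or 9 or wild-type mice 2 or 3, and in 9 of 15 in monocytes, among them without C3-/- mice 7, 8 or 9, without mice 7 and 8 together and without each wild-type mouse. The highest adjusted p was 0.0694 in macrophages and 0.144 in monocytes.

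Genes around itaconate were read in the same way, beside 5.70% of all genes called in macrophages and 3.32% in monocytes. In the authors' deposited table these shares were 6.07% and 9.43%. Of 16 tested genes of its source and disposal, 0 passed in macrophages (limma, 2 at an unadjusted p under 0.05, 0 in the authors' deposited table) and 1 fell in monocytes (1 at an unadjusted p under 0.05, 1 in the authors' deposited table). That one, Clybl, encodes a citramalyl-CoA lyase in the breakdown of itaconate and went from 451 ± 30.9 to 276 ± 52.6 normalized reads (-0.51; limma, adjusted p = 0.0150). Its call was lost without C3-/- mouse 8 (0.0538) or wild-type mouse 3 (0.0548). Of 10 genes around NRF2 and ATF3, factors through which itaconate acts, 0 passed in either cell type (limma, 4 and 1 at an unadjusted p under 0.05, 0 in the authors' deposited table for both). That list holds the genes of both factors, Nfe2l2 and Atf3, and Keap1 beside targets.

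Among 18 regulators of the member genes, 0 passed in macrophages (limma, 3 at an unadjusted p under 0.05, 1 in the authors' deposited table) and 1 rose in monocytes (5 at an unadjusted p under 0.05, 4 in the authors' deposited table). The shares of all genes were 5.70% and 3.32% by limma, and 6.07% and 9.43% in the authors' deposited table. Irf1, an interferon-induced factor that mouse macrophages need to induce Nos2, rose in C3-/- monocytes from 5081 ± 812 to 9101 ± 2309 normalized reads (0.60; limma, adjusted p = 0.0335). The call was lost in 6 of 15 alternatives, without C3-/- mice 6, 8 or 9 or wild-type mice 1, 2 or 4 (highest adjusted p 0.118). In no list did a gene pass in the difference of the C3-/- effect between cell types by limma without a block, where 0.617% of all genes did. With the mouse as a block 1.91% of all genes passed, and the list genes are not given here for that fit. Without the block the 6 lists gave 0 to 2 genes each at an unadjusted p under 0.05.

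Between the cell types 63.4% of all genes tested passed in wild type and 60.5% in C3-/-, with 31.7% higher and 31.7% lower in wild-type macrophages and 31.0% and 29.6% in C3-/-, and the lists are read beside these shares. Of the 18 regulators 14 were lower in wild-type macrophages and 1 higher, and 13 were lower and 1 higher in C3-/-. The list median was -0.38 and -0.43, beside -0.01 and 0.00 over all genes tested. Cebpb, a factor that binds the Arg1 enhancer, averaged 54986 ± 13693 normalized reads in wild-type monocytes and 7713 ± 4376 in wild-type macrophages. Its C3-/- call was lost without mice 7 and 8 (limma, adjusted p = 0.126). Hif1a, the hypoxia-inducible factor known to act on Nos2, averaged 17957 ± 3506 and 6180.2 ± 914. Jak2, a kinase of the interferon-gamma receptor, averaged 5837 ± 1031 and 1558 ± 323.

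In the arginine and nitric oxide list 4 genes were higher and 2 lower in wild-type macrophages, and 4 and 4 in C3-/-. Gch1, which starts the synthesis of the nitric oxide synthase cofactor tetrahydrobiopterin, averaged 5883 ± 339 normalized reads in wild-type monocytes and 2009 ± 90.0 in wild-type macrophages (-1.11; limma, adjusted p = 4.26e-09). Qdpr, which recycles that cofactor, was 2.75-fold higher in macrophages, and the arginine transporter gene Slc7a1 1.93-fold higher. In the ornithine and polyamine list 13 were higher and 4 lower in wild-type macrophages, and 11 and 2 in C3-/-. Smox, spermine oxidase, averaged 12544 ± 1992 in wild-type monocytes and 2757 ± 281 in macrophages, while Azin2 and the proline synthesis gene Pycr1 were 2.73-fold and 2.89-fold higher in macrophages.

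In the tryptophan list 6 were higher and 5 lower in wild-type macrophages, and 5 and 3 in C3-/-. Slc7a5, a subunit of a large neutral amino acid transporter, was 3.18-fold higher in wild-type macrophages, and the kynurenine aminotransferase genes Kyat1 and Kyat3 were 2.85-fold and 2.72-fold higher. In the itaconate list 9 genes were higher and 0 lower in wild-type macrophages, and 10 and 0 in C3-/-, with a median of 0.17 and 0.20. Abcg2, an export pump gene, averaged 85.3 ± 26.1 in wild-type monocytes and 375 ± 14.7 in macrophages. Idh3a and Suclg2, both of the citrate cycle, were 1.75-fold and 1.98-fold higher. Of the NRF2 and ATF3 list, which includes Atf3 itself, 0 were higher and 3 lower in wild-type macrophages, and 2 and 3 in C3-/-. Atf3 itself averaged 42376 ± 8550 in wild-type monocytes and 14666 ± 2413 in wild-type macrophages (-1.08; limma, adjusted p = 3.76e-05). In C3-/- mice the call of Atf3 (-0.87; adjusted p = 0.0268) was lost without mouse 7 (0.124) or mouse 9 (0.0568), without mice 7 and 8 (0.0624) and with no filter on low values (0.0717). That of Txnrd1, thioredoxin reductase, lower in macrophages of both genotypes, was lost in C3-/- mice without mouse 8 (0.0811) or mouse 9 (0.109), without mice 7 and 8 (0.132) and with TMM scaling (0.0512).

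The genes whose pattern over the 16 libraries was most like that of a member were found by the root mean square distance between gene-centred deposited log2 values, among 9874 genes. For Arg1 these were Tfec (0.17), Mxi1 (0.22) and Ero1l (0.23), where Arg1 itself varied by 0.65 about its mean. For Nos2 they were Ddit4 (0.32), Ndrg1 (0.33) and Thbd (0.34), with 1.12 for Nos2 itself. For Acod1 they were Ccl5 (0.22), Il27 (0.23) and Isg15 (0.24), with 0.81 for Acod1. The 16 libraries fall into 4 groups, so the distances mostly reflect the difference between cell types, and no search was made for Il4i1, whose reads were too few.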

How the data were processed

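RNA from 16 sorted samples (5 ng each) was sequenced after SMART-Seq v4 amplification, per the labels' protocols. The submitters' processing notes name bcl2fastq 2.19.0.316, STAR 2.7.2b, DESeq2 and GRCm38, with no role for each and no annotation or DESeq2 version. The authors deposited log2 values of 30819 genes in 16 libraries, with no named transform, which follow a regularized logarithm. For each cell type a comparison of the genotypes was deposited too, with log2 fold changes, per the file headers. The name of each table puts wild type first, C3 is positive there, and the sign was turned here to knockout minus wild type. The base mean there is a signal deposited by the authors, the average of normalized reads over libraries. Its Wald statistic is a score of the authors' fit, and its p-value columns are as deposited. All matrix columns were matched, with 0 left from other sources.

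Inverting the transform with the deposited base mean gave recovered reads. Where the base mean was 1 or more (20443 genes), 79.6% of values lay within 0.05 of a whole read (97.4% for base means 1 to 10, 97.2% for 10 to 100, 82.4% for 100 to 1000 and 31.3% for higher ones), and the mean was within 1% of the deposited one for 99.7%. They served for description, TMM and voom alternatives, while the tests used the deposited log2 values. Intervals and limits for few reads cover counting error only, since PCR copies are not independent molecules.

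limma 3.58.1 (R 4.3.3; trend, robust) was fitted to all genes whose linear value reached 10 in at least 4 libraries, with each comparison on its own 8 libraries and the difference of effects on all 16. p-values were adjusted by Benjamini-Hochberg over all genes tested and called under 0.05. The fit was tested on simulated data. Mouse numbers pair the cell types because the titles name the same mouse. Deviations from the group means correlated at 0.0306 to 0.417 within wild-type mice and 0.0517 to 0.211 within knockout mice, and at -0.323 to 0.188 and -0.227 to 0.136 between different mice. Gene models were GENCODE M21 (GRCm38), and similar transcripts of at least 200 bp were found with minimap2 2.31-r1302. Promoters came from RefSeq (GRCm38.p6).

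The members and the lists were chosen with earlier results of these data known. The alternative without C3-/- mice 7 and 8 was added after seeing the data. The genes named were the 9 members and C3, of each list and genotype comparison the called genes with the 3 smallest adjusted p, of each list between cell types the called genes with the 3 largest differences of the same sign in both genotypes, and for Arg1, Nos2 and Acod1 the 3 nearest genes with a mean linear value of at least 50. Other genes named were chosen after their values were seen. Prodh and Acmsd of the pathway lists, and Trem2, Mcpt8 and Fcer1a of the marker lists, had no row matched.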

Additional observations from a re-analysis of the deposited data

Results flagged for a closer look

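The difference between genotypes was not the same in both cell types for Nos2 and Odc1 once the mouse was a block. For Nos2 the C3-/- effect was 1.16 higher on the deposited log2 scale in macrophages (0.06) than in monocytes (-1.10), with limma's adjusted p = 0.0189 with the block and 0.294 without it. The monocyte over macrophage ratio of Nos2 was lower in 4 of 4 C3-/- mice than in any wild-type mouse. For Odc1 the C3-/- effect was 0.33 higher in macrophages (-0.67) than in monocytes (-1.01), with limma's adjusted p = 0.0165 with the block and 0.336 without it. Its ratio too was lower in 4 of 4 C3-/- mice. The share of all genes whose ratios lie apart in this way is not given here.

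None of 30 groups of 4 libraries, over the members with enough reads, held a value set apart from the other 3 by Dixon's 95% criterion, which chance alone would meet in about 1 of 20 groups.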

How the results depend on the processing

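Of 448 values of the 7 tested members under the alternatives, 425 kept their direction and side of the threshold, 6 lost the threshold, 11 passed it and 6 changed sign. The members called between genotypes in monocytes were 2 (Nos2 added) in the fit of all 16 libraries, 2 (Nos2 added) with both C3-/- mice 7 and 8 left out, and the authors' deposited table calls 3 (Nos2 and Slc7a2 added), against 1 with every other setting. For the difference of effects 2 members were called with the replicate block, against 0 with the other settings. The sign changes all came from leaving out single mice, over which Nos2 in macrophages ran from -0.060 to 0.22, Acod1 in macrophages from -0.40 to 0.042 and the Acod1 difference of effects from -0.18 to 0.10. The cause was not tested. None of these values had passed the test.

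The block of mice also moved Odc1 between wild-type cell types past the threshold (limma, adjusted p = 0.00169), as did TMM scaling (0.0174), voom (0.0158), array weights (0.0376) and leaving out mouse 2 (0.0118). It changed no other call of a member. Genotypes share no mouse, so no block applies between them.

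Genes called over all settings ran from 458 to 855 (717 as reported) between genotypes in macrophages, 237 to 1329 (427) in monocytes, 6723 to 8399 (8094) and 4761 to 8292 (7732) between cell types of wild-type and C3-/- mice, and 34 to 251 (81) for the difference of effects. Counts below the reported one by over 1.5 times came, in monocytes, without C3-/- mice 8 (237), 9 (243) or both 7 and 8 (254), or wild-type mice 2 (282), 3 (263) or 4 (280), and for the difference of effects without mice 1 (52), 2 (34), 3 (40), 4 (39), 8 (50), 9 (37) or both 7 and 8 (36). Counts above it were 981 (16 libraries fitted together) and 1329 (the authors' deposited table) in monocytes, and 251 with the block. Between cell types of C3-/- mice the 4761 came without mice 7 and 8. The genes of the pathway lists were put through the same settings after the data were seen. Ido1 and Il4i1 had too few reads to be tested. For Il4i1, reads on exon bases shared with other genes may also have been assigned elsewhere.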
